A study of Homo sapiens with 8 samples.

Results

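Cadherins, keratins and vimentin are the adhesion and filament genes that tell epithelial from mesenchymal cells, and 10 of them were followed across 2 clear cell renal cell carcinoma (ccRCC) cell lines: the cadherins CDH1, CDH2, CDH6 and CDH16, the intermediate filament genes VIM, KRT7, KRT8, KRT18 and KRT19, and the adhesion receptor EPCAM. They were listed by name, and each gene's value was the sum of its RefSeq protein-coding transcript (NM) entries in FPKM, fragments mapped to a transcript scaled by its length and by the size of the library. The list makes up 10 of the 18693 genes measured this way. A498 and 786-O cells both held very high VIM together with high KRT8 and KRT18, and both had CDH2 with almost no CDH1. The lines differed most in KRT7 and CDH16, which were higher in A498, and in EPCAM and KRT19, which were higher in 786-O. None of the genes passed the threshold after SLINKY knockdown.

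Classical cadherins join neighbouring cells through calcium-dependent contacts and are tied to actin by catenins inside the cell. Keratins are obligate pairs of an acidic type I chain (here KRT18 and KRT19) and a basic type II chain (KRT7 and KRT8), whereas vimentin forms its filaments alone. Simple epithelia such as kidney tubules build filaments mainly from KRT8 and KRT18, and joint presence of keratin and vimentin is a known feature of ccRCC. Proximal tubule cells are known for CDH2 and CDH6, CDH16 is known as a cadherin of kidney epithelium, and CDH1 is the cadherin of most other epithelia.

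The 8 libraries were of ccRCC lines A498 (4 libraries) and 786-O (4 libraries), both of kidney. In each line, 2 libraries (NTC 1 and NTC 2) came from cells given the non-targeting control siRNA, 1 from cells given SLINKY siRNA #1 and 1 from cells given siRNA #2, the labels' lincRNA KD, where SLINKY is a long intergenic noncoding RNA. All cells received siRNA at 50 nM with Lipofectamine 2000 for 16 hr by the labels, so none were left untransfected. The study's methods give a later time after transfection for the isolation of the RNA, so 16 hr may not be the time of the measurement. The labels call every siRNA a pool, while the study's methods describe 2 separate custom siRNAs against the first exon of SLINKY. Each siRNA has 1 library in a line, the lines were grown in different media (DMEM and RPMI-1640), so line and medium cannot be told apart, and nothing states that the libraries came from separate cultures, so p-values measure only the spread between these libraries, which may be technical.

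The depth implied by the Cufflinks intervals was 17491089 to 45367985 fragments per library. SLINKY was at 14.6 and 16.1 FPKM in the A498 NTC libraries against 1.64 with siRNA #1 and 3.01 with siRNA #2, and at 1.45 and 1.39 against 0.0569 and 0.594 in 786-O. PAX8, the renal lineage factor, lay between 39.2 and 48.1 FPKM in all 8 libraries, PAX2 between 1.06 and 1.84, and the segment markers UMOD, SLC12A1 and AQP2 at 0.028 FPKM or less. LRP2, CUBN, AQP1, SLC34A1 and SLC12A3, further renal genes, were at 0.171 FPKM or less in every library. CA9 lay between 0.293 and 0.559 FPKM in A498 and at 0.0229 or less in 786-O. The 9 leukocyte, endothelial and erythroid markers summed to 0.631 to 0.788 FPKM in A498 and to at most 0.258 in 786-O, with PTPRC and CD3E listed at 0 in every library. CD14 made up most of the A498 sum, at 0.375 to 0.494 FPKM, which was above EPCAM and CDH1 in that line, and the part of other cell types in the lowest genes was not tested.

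The promoter letters of VIM and KRT8 are shown because these genes are the most abundant of the set and their entries begin at different kinds of start. RefSeq (GRCh38.p14) sequences were used, and 3 of the 10 genes (VIM, KRT8 and CDH2) matched. Each line gives the 250 bases before the annotated gene start, 5′ to 3′ on the gene's strand. Capitals mark a GC box (GGGCGG or its complement CCGCCC). E-boxes of the form CACCTG or CAGGTG, the letters read by the ZEB and SNAI repressors, were searched on both strands as well.
VIM (chr10:17227991-17228240, plus strand): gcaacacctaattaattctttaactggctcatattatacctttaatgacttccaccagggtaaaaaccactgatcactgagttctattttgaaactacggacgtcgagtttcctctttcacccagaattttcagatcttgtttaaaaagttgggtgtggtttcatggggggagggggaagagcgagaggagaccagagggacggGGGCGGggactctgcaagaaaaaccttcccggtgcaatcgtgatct
KRT8 (chr12:52926470-52926719, minus strand): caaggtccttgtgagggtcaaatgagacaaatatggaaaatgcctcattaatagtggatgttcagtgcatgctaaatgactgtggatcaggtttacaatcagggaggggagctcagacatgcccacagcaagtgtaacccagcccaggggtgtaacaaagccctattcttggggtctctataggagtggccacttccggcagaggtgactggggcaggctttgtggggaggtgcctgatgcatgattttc
The VIM window held 1 GC box and no such E-box, and the KRT8 window held neither. Of 35116 promoter windows of the same length, 42.6% held a GC box and 17.5% an E-box of these letters. When matched to hg19, the VIM window ended 18 bases before the deposited NM_003380 entry. The KRT8 window holds no GENCODE exon but lies inside the span of NM_001256293, which starts further upstream and carried 2.13% to 4.55% of the KRT8 value. It ended exactly at the start of NM_001256282, a minor entry at 0.000154 to 8.47 FPKM, whereas NM_002273, which begins far downstream at chromosome 12 position 53298868, carried 94.2% to 97.8% of the KRT8 value. The CDH2 windows (hg19 gene starts 25757094 and 25616605) are not printed because both begin after the start of the deposited NM_001792 entry. This is the gene's single NM entry here. Neither window holds a GENCODE exon, but the exons of the deposited entry were not placed. Its first exon may lie in the more upstream window.

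**Figure D1:**
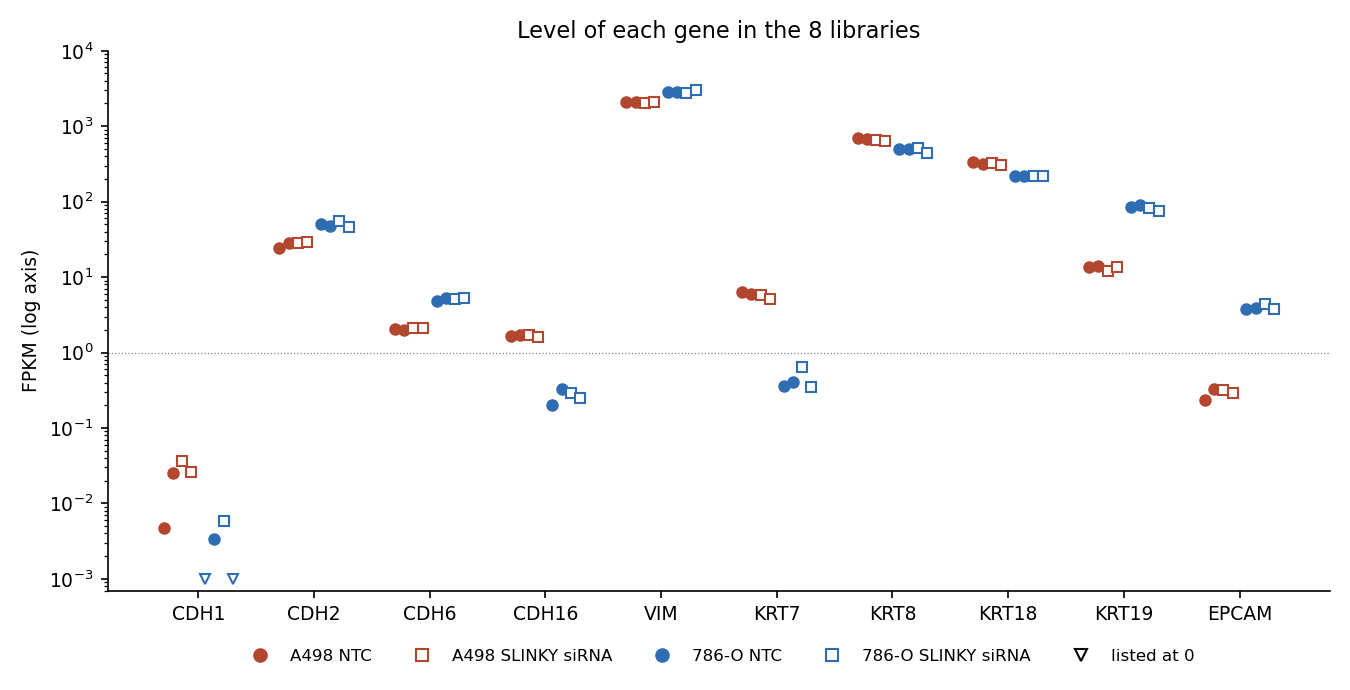
FPKM (log axis) of the 10 genes in each of the 8 libraries, A498 in red and 786-O in blue, with NTC libraries as filled circles, SLINKY siRNA libraries as open squares, and triangles for values listed at 0. The dotted line is 1 FPKM; VIM sits between 2024 and 3039 FPKM in both lines and CDH1 below 0.04 FPKM, and the lines separate without overlap for every gene but CDH1.

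Cadherin expression was carried by CDH2. CDH1, E-cadherin of adherens junctions (NM_004360, hg19 chromosome 16, 68771195 to 68869444), was close to undetected. Its FPKM in A498 was 0.00469 and 0.0257 with NTC, 0.0368 with siRNA #1 and 0.0259 with siRNA #2. In 786-O it was listed at 0 and 0.00335 with NTC, 0.00592 with siRNA #1 and 0 with siRNA #2. These values correspond to about 1 to 6 fragments per library in A498 and 0 or 1 in 786-O, and the 0 values allow up to 0.0181 and 0.0138 FPKM (3 fragments, counting error only), so no fold is given and the lines overlap. In bulk libraries such as these, fewer cells with a transcript and less transcript per cell cannot be told apart.

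CDH2, N-cadherin (NM_001792, chromosome 18, 25530930 to 25757445), was at 24.2 and 28.3 FPKM in the A498 NTC libraries and at 28.7 and 29.1 with siRNA #1 and #2. The 786-O libraries held 50.2 and 47.0 with NTC, then 54.8 and 46.8. Every 786-O library exceeded every A498 library, by 1.80-fold between the line means. CDH6, K-cadherin of the proximal tubule (NM_004932, chromosome 5, 31193762 to 31329253), followed the same direction at a lower level. It measured 2.06, 2.01, 2.09 and 2.14 FPKM in A498 (NTC 1, NTC 2, siRNA #1 and siRNA #2, the order used for all 4 values below). In 786-O it measured 4.85, 5.31, 5.13 and 5.36, again without overlap and 2.49-fold higher by the means.

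CDH16, kidney-specific Ksp-cadherin (4 NM entries, chromosome 16, 66942025 to 66952887), went the other way. Its summed level was 1.64, 1.72, 1.70 and 1.60 FPKM in A498. In 786-O it was 0.200, 0.333, 0.289 and 0.250, so the A498 mean was 6.21-fold higher with no overlap, on 74 to 139 fragments per library in A498 and 20 to 34 in 786-O. The mean over all 8 libraries, 0.966 FPKM, fell just under the filter of 1 FPKM used for testing, and CDH1 fell far under it, so 8 of the 10 genes were tested.

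VIM, the type III filament protein of mesenchymal cells (NM_003380, chromosome 10, 17270258 to 17279592), was the highest of the set in every library. Its level was 2111, 2071, 2024 and 2079 FPKM in A498. In 786-O it was 2827, 2843, 2719.7 and 3039, with no overlap and a mean 1.38-fold above that of A498. By NTC mean, VIM ranked 18 of 18693 genes in A498 and 14 in 786-O. The lncRNA entry ENSG00000234961.1 overlaps this gene on the other strand, and as the library kit does not mark strand, reads where they overlap cannot be assigned to one of them. The antisense entry reached at most 4.56 FPKM. Opposite-strand lncRNA entries also overlap CDH1, CDH2, CDH6 and KRT7, with highest values of 0.0498, 3.78, 0.174 and 0.314 FPKM. KRT8 and KRT18 lie on opposite strands and overlap each other through the KRT8 entry NM_001256293, which reached 30.4 FPKM.

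KRT8 and KRT18, the partner chains of simple epithelia, were the most abundant of the listed keratins in both lines. KRT8 (3 NM entries, chromosome 12, 53290971 to 53343650) was at 692, 668, 661 and 644 FPKM in A498. It was at 499, 497, 518 and 444 in 786-O, 1.36-fold lower by the means and without overlap. KRT18 (2 NM entries, chromosome 12, 53342655 to 53346685) moved with it. A498 held 338, 319, 324 and 309 FPKM of KRT18. The 786-O libraries held 217, 216, 218 and 221, 1.48-fold lower without overlap. RefSeq names 52 KRT8 and 68 KRT18 pseudogenes, so how the 36-bp reads were shared among these copies is uncertain.

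KRT7 and KRT19, chains of ductal and simple epithelia, separated the lines in opposite directions. KRT7 (NM_005556, chromosome 12, 52626954 to 52642709) was at 6.41, 5.90, 5.78 and 5.16 FPKM in A498. In 786-O it was at 0.361, 0.402, 0.638 and 0.354, 13.2-fold lower by the means, on 18 to 39 fragments per library against 193 to 501 in A498. KRT19 (NM_002276, chromosome 17, 39679869 to 39684641) was at 13.7, 13.98, 12.0 and 13.6 FPKM in A498. The 786-O libraries held 84.0, 89.8, 81.5 and 75.5, 6.20-fold higher. KRT19 exceeded KRT7 by 2.08- to 2.64-fold in A498 and by 128- to 233-fold in 786-O, and the 2 ranges did not overlap. KRT19 has 5 named pseudogenes.

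EPCAM, an epithelial adhesion receptor and signalling protein (NM_002354, chromosome 2, 47596287 to 47614167), had the largest ratio of line means in the set. A498 values were 0.236, 0.324, 0.317 and 0.289 FPKM, resting on 11 to 19 fragments. The 786-O values were 3.83, 3.85, 4.38 and 3.83 FPKM, resting on 211 to 378 fragments and 13.6-fold higher by the means. Of the genes known as epithelial, EPCAM and KRT19 were higher in 786-O, and KRT7, KRT8, KRT18 and CDH16 were higher in A498.

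**Figure D2:**
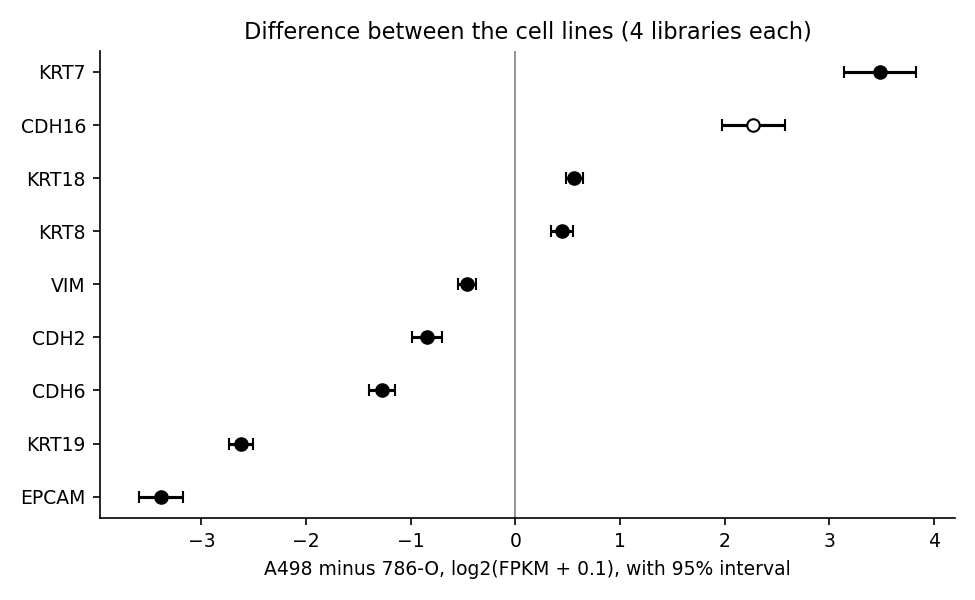
Difference between the cell lines, A498 minus 786-O, on the log2(FPKM + 0.1) scale, with its 95% interval from limma on 4 libraries of each line. Filled points are genes tested with the filter and the open point is CDH16, from the fit without it; KRT7, CDH16, KRT18 and KRT8 lie to the right (higher in A498) and VIM, CDH2, CDH6, KRT19 and EPCAM to the left.

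Limma on log2(FPKM + 0.1), with transfection as a covariate and Benjamini-Hochberg adjustment over 10503 genes, called all 8 tested genes between the lines, where 83.0% of all genes tested were called, so the number of calls says little by itself. KRT7 differed by 3.48 (A498 minus 786-O, SE 0.15, adjusted p = 1.3e-08) and EPCAM by -3.38 (SE 0.094, adjusted p = 4.5e-10). KRT19 differed by -2.62 (SE 0.050, adjusted p = 3.7e-11) and CDH6 by -1.28 (SE 0.054, adjusted p = 1.0e-08). These 4 genes were called and at least 2-fold apart, against 23.3% of all genes. KRT7 and EPCAM reached the filter of 1 FPKM only through the line where they were high, so that count does not support a difference. CDH2 differed by -0.85 (SE 0.065, adjusted p = 8.5e-07), VIM by -0.46 (SE 0.038, adjusted p = 1.5e-06), KRT18 by 0.56 (SE 0.034, adjusted p = 1.6e-07) and KRT8 by 0.45 (SE 0.046, adjusted p = 8.2e-06).

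The direction was higher in A498 for 3 of the 8 and higher in 786-O for 5, against 40.6% and 42.5% of all genes. The median absolute difference was 1.06 over the 8 genes and 0.50 over all genes. As the 8 include KRT7 and EPCAM, which reached the filter only through the line where they were high, this contrast does not support a larger difference. CDH16, in the fit without the filter, differed by 2.27 (SE 0.12, adjusted p = 1.5e-05). The pseudocount sets the size of the low genes, and with 1 FPKM in place of 0.1 the difference shrank to -1.94 for EPCAM and 2.24 for KRT7. For KRT18, taking the single highest NM entry in place of the sum raised the difference to 1.07. For all 9 genes with a fold the lines did not overlap, as was so for 77.3% of the tested genes.

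Ordered by mean level, A498 ran VIM, KRT8, KRT18, CDH2, KRT19, KRT7, CDH6, CDH16, EPCAM and CDH1. The order in 786-O was VIM, KRT8, KRT18, KRT19, CDH2, CDH6, EPCAM, KRT7, CDH16 and CDH1. No gene overlapped its neighbour in the order of either line across the 4 libraries, so the exchange of KRT19 and CDH2 and the fall of KRT7 below EPCAM exceeded the spread between libraries. VIM exceeded the sum of the 4 keratins by 2.01- to 2.14-fold in A498 and by 3.32- to 4.10-fold in 786-O.

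Among these 4 keratins, the balance of type I and type II chains differed between the lines. The sum of KRT7 and KRT8 over the sum of KRT18 and KRT19 was 1.99, 2.02, 1.99 and 2.01 in A498. It was 1.66, 1.63, 1.73 and 1.501 in 786-O, below A498 in every library. With the 24 keratins that were listed by name and measured (12 of each type), the ratio was 1.71 to 1.76 in A498 and 1.51 to 1.698 in 786-O. This was still without overlap but closer, and KRT15 is the main chain added in A498. Keratins outside the lists were not summed. The ratio of KRT8 to KRT18 alone was 2.04 to 2.09 in A498 and overlapped that of 786-O, 2.01 to 2.37. KRT19 made up 3.58% to 4.23% of the type I sum in A498 and 25.5% to 29.4% in 786-O.

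The 2 KRT18 entries share nearly all of their sequence, and within a line their split varied while their sum was steady. NM_199187 took 9.86% and 7.08% of KRT18 in the A498 NTC libraries, 25.3% with siRNA #1 and 32.8% with siRNA #2. In 786-O it took 45.6% and 40.8% with NTC, 54.6% with siRNA #1 and 30.3% with siRNA #2. Both A498 knockdown libraries lay above both NTC libraries, while in 786-O one lay above and one below. The A498 share with siRNA #1 is poorly resolved. There the Cufflinks intervals imply only 375 fragments for NM_000224 and 40 for NM_199187, against 5007 and 1855 with siRNA #2, so no shift with knockdown can be read from it. Cufflinks divides reads between overlapping entries, and what part that division has in these shares was not tested. The span of the KRT8 entry NM_001256293, on the other strand, also covers the starts of both KRT18 entries. What part KRT8 reads have in these shares was not tested either.

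**Figure D3:**
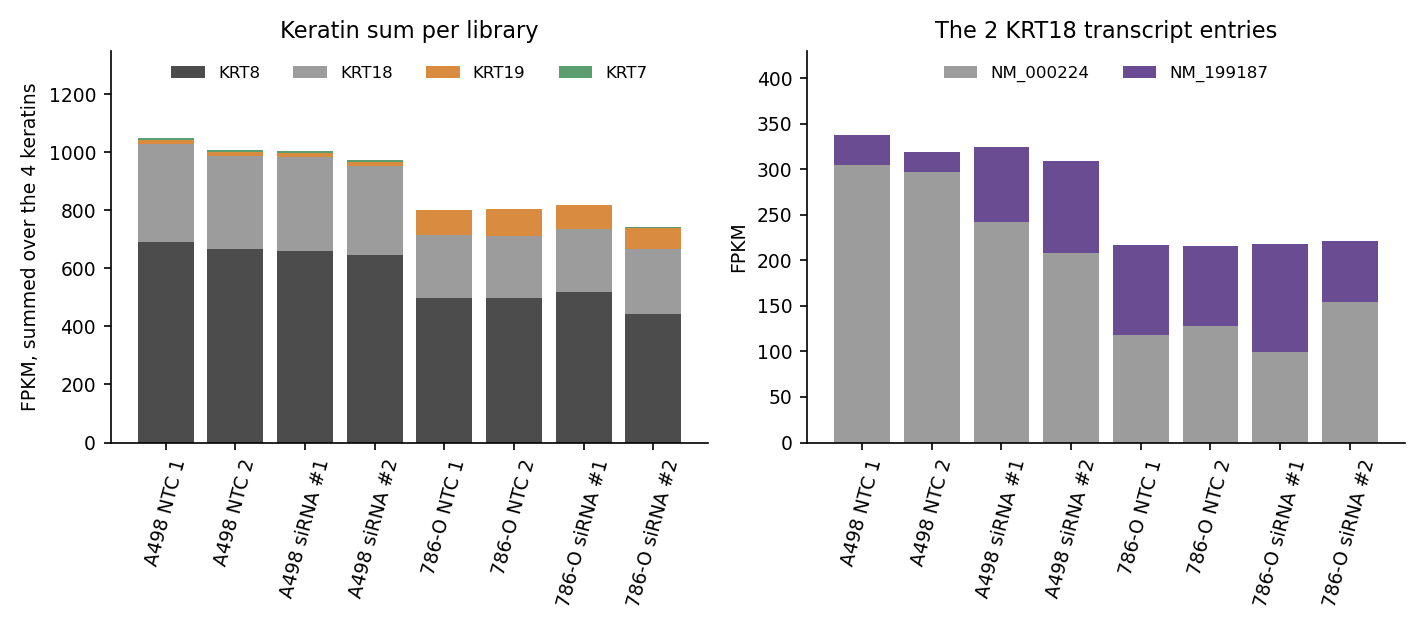
Left, FPKM of KRT8, KRT18, KRT19 and KRT7 stacked for each library; the sums are 972 to 1050 in A498 and 741 to 819 in 786-O, where the KRT19 segment is wider. Right, FPKM of the 2 KRT18 transcript entries stacked for each library, where the total is steady within a line and the split is not.

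Genes that work with these proteins were described from 10 lists, by the 3 largest differences between the lines in each list among genes that passed limma. All differences are A498 minus 786-O on the log2(FPKM + 0.1) scale. Over all tested genes 83.0% were called, 40.6% higher in A498 and 42.5% higher in 786-O, 23.3% were called and at least 2-fold apart, and the median difference was -0.017, so a count of calls near those shares is not a result about a list. Genes such as CDH11 and DSP passed the filter only through the line where they were high, which selects for large differences. Of 18 other cadherins, 3 passed the filter, with CDH11, a mesenchymal and osteoblast cadherin, at 2.005 to 2.47 FPKM in A498 and 0.0714 to 0.173 in 786-O (difference 3.35). CDH13, a cadherin held by a lipid anchor without a cytoplasmic tail, was reversed, at 0.0703 to 0.157 FPKM in A498 and 7.34 to 8.36 in 786-O (difference -5.26). CDH3, CDH4 and CDH17 stayed under the filter and were named after their values were seen. They lay between 1.05 and 2.22 FPKM in every A498 library and at 0.040 FPKM or less in every 786-O library.

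All 8 tested catenins and cadherin partners were called (83.0% of all genes), 2 higher in A498 and 6 higher in 786-O, with a median difference of -0.41. JUP, plakoglobin shared by adherens junctions and desmosomes, was at 13.8 to 15.4 FPKM in A498 and 0.328 to 0.454 in 786-O (difference 4.88). PLEKHA7, of the apical adherens junction, differed by 3.08 and CTNNAL1, an alpha-catenin relative, by -0.95. Both core catenins, CTNNA1 (-0.35) and CTNNB1 (-0.44), were among the 6 genes higher in 786-O.

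Desmosomes anchor keratin filaments to the membrane, and 5 of 6 tested desmosome genes were called, the same share as the 83.0% of all genes, 4 of them higher in A498 (40.6% of all genes). DSP, the plakin that binds keratin, was at 2.01 to 2.50 FPKM in A498 and 0.0120 to 0.0220 in 786-O (difference 4.31). The plakophilin PKP3 was at 25.5 to 31.3 FPKM in A498 and 3.76 to 4.65 in 786-O (difference 2.72), and PKP4 differed by -1.18. DSG2, the desmosomal cadherin of simple epithelia, was at 9.497 to 11.6 FPKM in A498 and 11.04 to 11.9 in 786-O and was not called (adjusted p = 0.053).

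**Figure D4:**
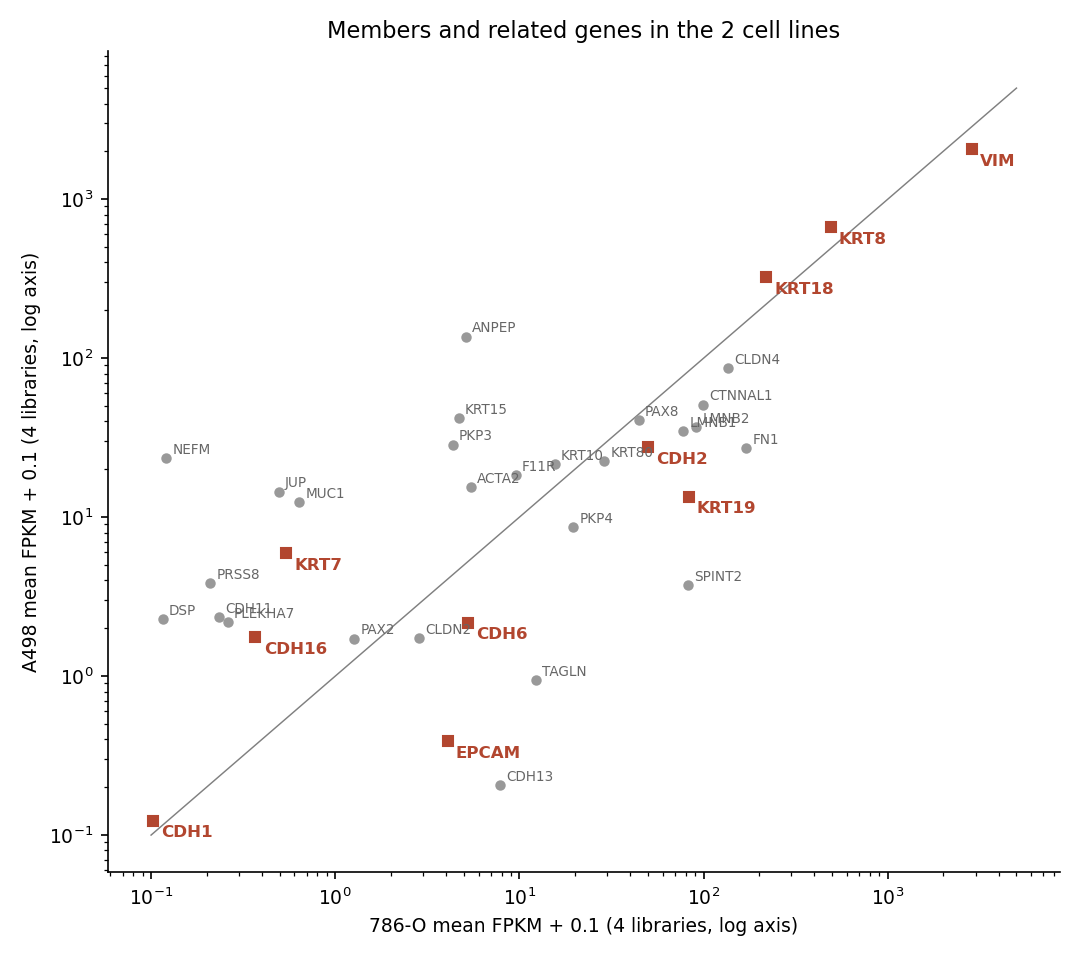
Mean FPKM + 0.1 of the 10 genes (red squares) and of the related genes named from the lists (grey circles) in A498 against 786-O, 4 libraries each, on log axes with the line of equality. KRT7, CDH16, JUP, DSP and NEFM lie above the line and EPCAM, KRT19, CDH13, SPINT2 and TAGLN below it.

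Among the 20 other keratins that were listed and measured, 3 passed the filter and all 3 were called (83.0% of all genes). KRT15, a type I chain of basal cells, was at 39.9 to 44.1 FPKM in A498 and 3.67 to 5.16 in 786-O (difference 3.17), which put it above KRT19 in A498. KRT10 differed by 0.47 and KRT80 by -0.36. Of 9 tested filament and linker genes, 88.9% were called (83.0% of all genes). The called genes were 6 higher in A498 and 2 in 786-O (40.6% and 42.5% of all genes), with a median difference of 0.80. NEFM passed the filter only through A498, which selects for a large difference. The neurofilament gene NEFM was at 23.2 to 24.2 FPKM in A498 and 0.0179 to 0.0236 in 786-O (difference 7.61), whereas the nuclear lamins LMNB2 (-1.31) and LMNB1 (-1.17) were higher in 786-O.

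All 8 tested tight junction genes were called with small differences, 3 higher in A498 and 5 in 786-O, with 83.0% of all genes called, and none was 2-fold apart, where 23.3% of all genes were. F11R differed by 0.95, CLDN2 by -0.71 and CLDN4 by -0.65. Of 7 tested epithelial identity genes, all were called (83.0% of all genes), 4 higher in A498 and 3 in 786-O. SPINT2, a membrane protease inhibitor, was at 3.36 to 3.86 FPKM in A498 and 80.5 to 85.5 in 786-O (difference -4.46), in the direction of EPCAM. MUC1 (4.33) and the protease PRSS8 (4.26) were in the direction of KRT7.

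The mesenchymal and contractile genes were divided as well, with 4 of 10 tested higher in A498, 5 higher in 786-O and 1 not called (83.0% of all genes called). TAGLN, an actin-binding protein of smooth muscle, was at 0.798 to 0.872 FPKM in A498 and 11.2 to 13.0 in 786-O (difference -3.71), and fibronectin, FN1, differed by -2.64. ACTA2, smooth muscle actin, was at 14.7 to 16.5 FPKM in A498 and 4.35 to 7.99 in 786-O (difference 1.56). Of the renal genes tested, ANPEP, a brush border peptidase, was at 130 to 144 FPKM in A498 and 4.76 to 5.54 in 786-O (difference 4.74), PAX2 differed by 0.45 and PAX8 by -0.13. The other 11 renal genes stayed under the filter, and not all ran in the direction of ANPEP. MME was at 0.340 to 0.441 FPKM in A498 and 1.29 to 1.38 in 786-O. No gene of the leukocyte, endothelial and erythroid list passed the filter.

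To ask whether SLINKY knockdown moved these genes, the 4 knockdown libraries were compared with the 4 NTC libraries with the cell line as a covariate. Limma called none of the 8 tested genes, where it called 0 of 10503 genes (0.0%) at an adjusted threshold of 0.05 and 1249 at an unadjusted p under 0.05 (11.9%). The differences of the 8, knockdown minus NTC on the log2(FPKM + 0.1) scale, ran from -0.13 to 0.099 with adjusted p from 0.40 to 0.97. Their median absolute size was 0.053 beside 0.062 over all genes.

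KRT19 had the lowest adjusted p of the set. It was at 12.0 and 13.6 FPKM with siRNA #1 and #2 against 13.7 and 13.98 with NTC in A498. In 786-O it was at 81.5 and 75.5 against 84.0 and 89.8. All 4 knockdown libraries were below both NTC libraries of their line, an arrangement that 4.97% of the tested genes showed in both lines. The fitted difference was -0.13 (SE 0.050, adjusted p = 0.40 by limma) and so missed the threshold. Its 95% interval, not adjusted for the number of genes, ran from -0.24 to -0.017 and left out 0. The unadjusted p by limma was 0.029, and 11.9% of all genes had an unadjusted p under 0.05.

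CDH2 differed by 0.099 (interval -0.046 to 0.25, adjusted p = 0.55) and EPCAM by 0.092 (interval -0.12 to 0.30, adjusted p = 0.70). VIM differed by -0.0036, with an interval from -0.089 to 0.082 (adjusted p = 0.97). The intervals of KRT8 (-0.16 to 0.047), KRT18 (-0.094 to 0.061) and CDH6 (-0.074 to 0.17) spanned 0, and that of the low gene KRT7 (-0.30 to 0.39) was the widest. For KRT18 the highest NM entry alone gave -0.21 (adjusted p = 0.66) in place of -0.016 for the sum. In the fit without the filter CDH16 differed by 0.0062 (interval -0.29 to 0.31).

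**Figure D5:**
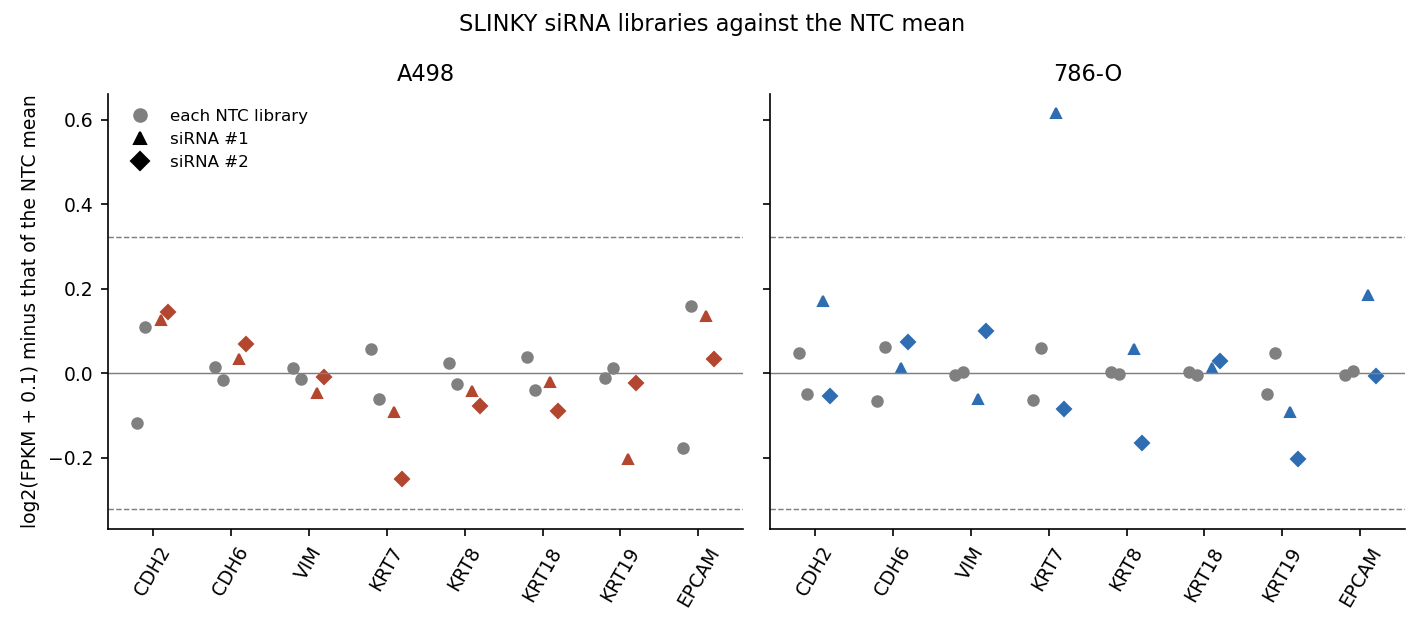
Each library's log2(FPKM + 0.1) minus that of the NTC mean of its line for the 8 tested genes, A498 left and 786-O right, with NTC libraries in grey, siRNA #1 as triangles and siRNA #2 as diamonds. Dashed lines mark a value 25% above the NTC mean and the same ratio below it, passed by KRT7 with siRNA #1 in 786-O and by no other siRNA value.

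Within A498 (2 knockdown against 2 NTC libraries) limma called none of the 8 genes (adjusted p from 0.81 to 0.93) and 3 of all genes (0.0286%). Within 786-O it called none (adjusted p from 0.97 to 0.98), where it called 0 of all genes (0.0%) and 398 at an unadjusted p under 0.05. In A498, 5 of the 8 genes had knockdown and NTC libraries that did not overlap (CDH2 and CDH6 higher, KRT7, KRT8 and KRT19 lower), against 37.3% of all genes. In 786-O there were 2 of 8 (KRT18 higher, KRT19 lower), against 32.8%. The knockdown effect differed between the lines for none of the 8 genes by the interaction term (adjusted p = 1.00 for each, with 1 of 10503 genes called, 0.00952%).

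Each siRNA library was also set by itself against the NTC mean of its line, with no test, counting values at least 25% above it or the same ratio below. None of the 8 genes passed it with siRNA #1 or siRNA #2 in A498 (3.81% and 5.49% of all genes) or with siRNA #2 in 786-O (3.92%). With siRNA #1 in 786-O (5.91% of all genes), KRT7 alone passed, 0.62 above the NTC mean on the log2 scale, on fewer than 40 fragments. In A498 KRT7 was 0.091 and 0.25 below the NTC mean with siRNA #1 and #2, the opposite direction. For comparison, 4.67% of genes differed by this ratio between the NTC libraries of A498, EPCAM among them, and 4.63% between those of 786-O.

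No gene of the 9 lists with tested genes was called in any knockdown comparison. The lowest adjusted p over both lines by limma was 0.29 in the desmosome list (PKP3) and 0.30 among the catenins (VCL). It was 0.29 among tight junction genes (CLDN1), 0.47 in the epithelial list (LSR) and 0.40 in the mesenchymal list (FN1). Filament and linker genes had 0.29 (LMNA), other keratins 0.63 (KRT15), other cadherins 0.73 (CDH24) and the renal list 0.51 (PAX8). The genes whose levels ran most like each member's over the 8 libraries, after each line's mean was subtracted, are given as a description, since the libraries share depth and transfection. These were CLIC4 for CDH2 (Pearson r = 0.994), DAG1 for CDH6 (0.962), ANGPTL4 for VIM (0.976), EBI3 for KRT7 (0.982), DNAJC5 for KRT8 (0.991), LAMTOR2 for KRT18 (0.931), PARN for KRT19 (0.983) and RBM18 for EPCAM (0.987). Between 14 and 303 of the 10503 tested genes exceeded 0.9 with each member. Each r named here is the highest over all tested genes, so its size by itself says little.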

How the data were processed

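RNA-seq libraries (single-end 36-bp reads, TruSeq) of A498 and 786-O cells were analysed. The authors mapped reads to hg19 and deposited 1 FPKM value per transcript entry and library, from Cufflinks. The submitters' processing notes name TopHat2 2.0.0 and Cufflinks 2.0.2. No counts were used. Each file holds 75378 entries, of which 35951 are NM entries, and 97.7% of these matched a symbol in the RefSeq table. Their FPKM were summed per symbol.

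Genes with a mean of at least 1 FPKM (10503) were tested with limma 3.58.1 in R 4.3.3 on log2(FPKM + 0.1), with a mean-variance trend and Benjamini-Hochberg adjustment at 0.05. Such folds understate changes of low genes. Intervals are 95%. Fold changes called by means are plain FPKM ratios. Fragments per entry were derived from the Cufflinks upper bound, where 67.9% to 69.9% of low entries came out whole within 0.02, and they cover counting error only. On simulated data with 200 genes changed 2-fold, 197 were recovered between the lines, 196 over the pooled knockdown, 171 within A498, 182 within 786-O and 151 for the interaction. Changes under 2-fold were not simulated, so these counts do not show how small a knockdown change could be found.

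The members and gene lists were chosen with earlier results of these data known. All 10 members were named, and, from each list, the 3 largest called differences between the lines and any gene called in a knockdown comparison. Outside this rule, CTNNA1, CTNNB1, DSG2, MME, CDH3, CDH4 and CDH17 were named. So were the cell type markers and the gene with the lowest knockdown adjusted p of a list. Of each member passing the filter, the gene with the highest within-line correlation was named. Alternatives were pseudocounts of 1 and 0.01, no filter, median-ratio scaling, the highest NM entry, NM and NR entries together, a replicate block, NTC libraries alone, 1 fit of the 4 groups, and each library left out.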

Additional observations from a re-analysis of the deposited data

Results flagged for a closer look

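In groups of 4 libraries of a line, 4 of 20 groups had 1 library apart from the others by Dixon's 95% criterion, which chance gives in about 1 of 20. CDH2 was low in A498 NTC 1 (24.2 FPKM), KRT19 was low in A498 with siRNA #1 (12.0 FPKM), KRT7 was high in 786-O with siRNA #1 (0.638 FPKM), and EPCAM was high in the same library (4.38 FPKM).

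Outside the NM entries, the antisense lncRNA entry overlapping VIM (ENSG00000234961.1) held signal in every library. It measured 1.78 and 2.19 FPKM with NTC, 0.570 with siRNA #1 and 2.12 with siRNA #2 in A498. In 786-O it measured 4.25, 4.10, 3.64 and 4.56 FPKM, above every A498 library, in the direction of VIM. The noncoding KRT8 entry NR_045962 measured 5.20 to 8.43 FPKM in A498 and 5.22 to 6.48 FPKM in 786-O, so the lines overlapped. None of these was tested.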

How the results depend on the processing

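Between the lines, the 8 tested genes kept their direction and their call under all 16 alternatives (128 values), and the count of all genes called was 7918 with NTC libraries alone to 11633 without the filter. CDH16 stayed under the filter in the fits that kept it. In the knockdown comparisons no member was called under any alternative (lowest adjusted p 0.34 pooled, 0.38 in A498, 0.45 in 786-O and 0.56 for the interaction).

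Of the pooled knockdown differences, 8 values near 0 changed sign and 112 did not. KRT7 went to -0.019 with a pseudocount of 1. With 1 library left out, VIM ran from -0.040 to 0.024, KRT7 from -0.14 to 0.14 and KRT18 from -0.027 to 0.0070. With the highest NM entry KRT18 was -0.21.

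Counts of all genes called moved more, and the cause was not tested. With NM and NR entries they were 1 for the pooled knockdown, 20 in A498, 16 in 786-O and 16 for the interaction. Without the filter they were 0 in A498, 1 in 786-O and 11 for the interaction. With the highest NM entry they were 5 in 786-O and 5 for the interaction. The interaction gave 0 with a pseudocount of 1, and A498 gave 1 in 1 fit of the 4 groups. With 1 library left out, where a lone library is assumed to vary like the others, the pooled count ran from 0 to 4 (the 4 without siRNA #2 in 786-O). The A498 count ran from 2 to 156 (156 without siRNA #1, 96 without siRNA #2), the 786-O count from 0 to 2 (without siRNA #1), and the interaction from 1 to 6 (without siRNA #1 in A498). 

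Genes at least 25% above the NTC mean or the same ratio below, for siRNA #1 and #2 in A498 and then in 786-O, numbered 400, 577, 621 and 412. They were 195, 299, 299 and 173 with a pseudocount of 1, 1663, 2183, 1619 and 1205 without the filter, and 930, 1250, 1131 and 958 with the highest NM entry. With NM and NR entries siRNA #1 in A498 gave 633 and siRNA #2 in 786-O gave 656. Against a single NTC library they ran from 465 to 675, 505 to 1142, 701 to 808 and 542 to 597.

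The NTC replicate and siRNA numbers are shared by number only. Over the tested genes, deviations of NTC 1 and siRNA #1 from their group means correlated at 0.25 in A498 and -0.031 in 786-O. With 2 libraries in a group, the deviations of number 2 are the negatives of these, so each line gives only 1 comparison. With the number as a replicate block, the counts were 8723 between the lines, 0 for the pooled knockdown, 3 in A498, 0 in 786-O and 1 for the interaction, and it changed no call of a member. Depth limits CDH1, EPCAM in A498 and KRT7 and CDH16 in 786-O, which rest on fewer than 40 fragments per library.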
